A study of Mus musculus with 18 samples.

Results

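Differential m6A peaks that lie in an intron of a protein-coding transcript, other than its first intron, numbered 4466 of the 41084 peaks deposited for the uterus of early pregnant mice. A peak was a member when its deposited annotation named an intron of a curated or predicted RefSeq coding transcript and the number of that intron was above 1. The gene of that transcript is called the host. Uteri were collected on day 5 of pregnancy from wild-type ICR females aged 8 weeks in 3 treatments. Vehicle (Veh) mice received vehicle intraperitoneally on days 1 to 4. LPS mice received vehicle on those days and lipopolysaccharide (LPS) at 0.5 mg/kg on days 3 and 4. LPS is a bacterial cell wall component that triggers inflammation. Mel+LPS mice received melatonin at 10 mg/kg on days 1 to 4 with LPS at 0.5 mg/kg given 30 min later on days 3 and 4. Melatonin was dissolved in saline with ethanol, and the paper does not state what the vehicle held. Each treatment had 3 replicates with an input and an immunoprecipitated library, 18 libraries in all. The whole uterus was used, so that a change in the number of cells of one type, in the RNA of each cell and in methylation cannot be told apart.

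N6-methyladenosine (m6A) is deposited on nascent RNA in the nucleus by the METTL3 and METTL14 complex, mainly in the DRACH sequence (where H stands for A, C or T, D for any base but C, and R for a purine), and much of it is found near stop codons and in long exons of mature mRNA. Introns are present mainly in pre-mRNA, in retained-intron transcripts and in RNA from transcripts not yet annotated. Part of an intron can also be an exon of another transcript. In the nucleus, YTHDC1 and HNRNPA2B1 bind methylated RNA and take part in splicing. The junction between an exon and the intron that follows it is the 5′ splice site, where the U1 snRNP binds.

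The LPS vs Veh comparison gave 1335 members among 12023 m6A-up peaks (11.1%, 95% Wilson interval 10.6 to 11.7) and 757 members among 6414 m6A-down peaks (11.8%, 11.0 to 12.6). The Mel+LPS vs LPS comparison gave 1165 among 13436 m6A-up peaks (8.67%, 8.21 to 9.16) and 1209 among 9211 m6A-down peaks (13.1%, 12.5 to 13.8). These sets are called LPS-up, LPS-down, Mel+LPS-up and Mel+LPS-down. The table of LPS-down peaks was complete for chromosomes 1 to 9 only, with 737 of its members there and 20 on chromosome 10, so that directions in LPS vs Veh were compared on chromosomes 1 to 9. All intervals cover counting error only. Each peak carried a single score for a whole comparison, the log10 likelihood ratio of a difference between the treatments, and no value for a replicate, so that no test over mice could be made. Both comparisons used the same LPS libraries.

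The members lay in 2697 host genes, of which 1646 held a single later-intron peak. The median intron was number 5 of 13. Between 11.9% and 13.3% of the members of a table lay in the last intron. In 2025 members (45.3%) the gene that the deposited table assigned to the peak, by the nearest transcription start, was not the host. The peak in the last intron of Stat3, for example, was assigned to Stat5a, and a peak in intron 15 of Sec24d to Mettl14. There were 129 members on scaffolds outside the assembled chromosomes, which hold near-identical copies of genes and where reads can be split, and these were not placed on reference exons.

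The later-intron peaks fell into 2 kinds by their place in the intron. Placing on the exons of protein-coding GENCODE transcripts of the host (GRCm38) was possible for 4215 members. Of these, 1917 (45.5%, 44.0 to 47.0) began within 200 bases after an exon in the direction of transcription. A further 2125 (50.4%, 48.9 to 51.9) lay more than 200 bases from any coding-transcript exon of the host, called deep here. Only 95 (2.25%) lay within 200 bases before the next exon, and 78 touched an exon of the host that the deposited annotation did not use. The first 200 bases made up 1.18% of the sequence of the 3208 introns that held members. A peak that overlaps a RefSeq exon by any base was annotated as exonic, so that no member could span a RefSeq splice site.

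**Figure D1:**
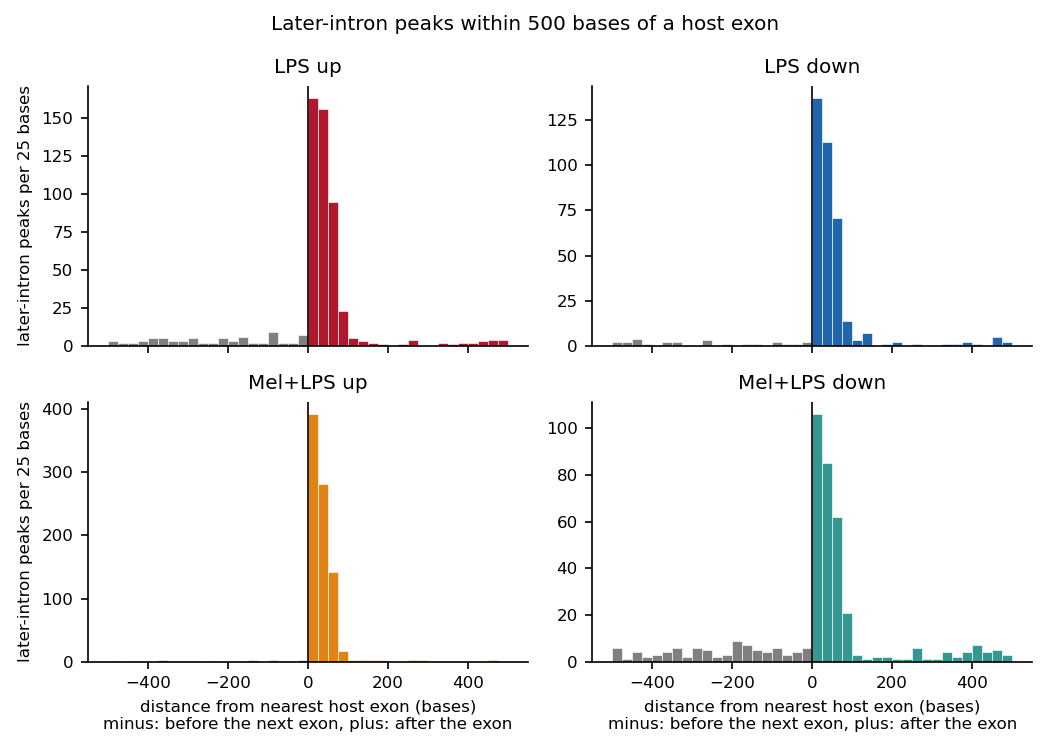
Number of later-intron peaks (vertical axis, per 25 bases) by distance in bases from the nearest exon of the host, for each of the 4 tables. Coloured bars are peaks after an exon, grey bars peaks before the next exon. In every table the peaks pile up in the first 100 bases after an exon, with no such pile before the next one.

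The peaks close to an exon were almost all on the 5′ splice site side. Of the members within 200 bases of an exon, 93.1% lay after it in LPS-up (448 against 33 before the next exon), 97.7% in LPS-down (346 against 8), 98.8% in Mel+LPS-up (841 against 10) and 86.5% in Mel+LPS-down (282 against 44). The median gap between the exon and the peak was 31 bases, 1434 of the 1917 began within 50 bases and 1879 (98.0%) within 100 bases. Deep peaks showed no such preference, with 1109 of 2125 (52.2%, 50.1 to 54.3) nearer to the exon before. The genes on the minus strand hosted 1280 of the peaks after an exon and those on the plus strand 637, whereas deep peaks numbered 998 and 1127. Peaks before the next exon numbered 47 and 48, so that peaks after an exon were far more frequent than these on either strand. Why the strands differed in the number of peaks after an exon was not tested.

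Peaks on internal exons were displaced to the same side. Of 9572 internal-exon peaks that touched an exon of their host, 6697 (70.0%) ran past its downstream end only, 91 (0.951%) past its upstream end only and 2745 (28.7%) lay inside. Those that ran past the downstream end did so by a median of 130 bases. When the centre of every placed later-intron peak was moved 100 bases upstream on the strand of the host, 1182 of 4215 centres (28.0%, 26.7 to 29.4) fell on an exon of the host, against 91 (2.16%, 1.76 to 2.64) when moved 100 bases downstream and 74 (1.76%) as deposited. In Mel+LPS-up the upstream move placed 591 of 1113 centres (53.1%) on an exon. The move was chosen after seeing the data. It restates the gaps given above and is no separate result. Members are intronic by rule, and most of those near an exon begin within 100 bases after it. Whether the deposited positions are offset was not tested.

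Of the 1917 peaks after an exon, 13 (0.678%) had a peak on that exon in their own table, and 153 (7.98%) had one in any of the 4 tables. The share of other exons with a peak was not computed, and any peak that touches the exon counts as exonic and is no member. The exons before these peaks were of ordinary size, with a median of 117 bases against 120 bases in other internal exons of the same transcripts.

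Peaks after an exon and deep peaks also differed in width, intron and host. Peaks after an exon were narrower (median width 123 bases against 176 bases in deep peaks) and lay in shorter introns (median 1924 bases against 13369 bases). Hosts of peaks after an exon (1508 genes) spanned a median of 52.0 kb and hosts of deep peaks (1189 genes) 93.5 kb, against 22.0 kb over 18503 coding genes with at least 2 introns. Both kinds of peak occurred in 231 hosts.

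The ends (at most 150 bases) of the exons before 4 high-scoring peaks are shown to place the junctions, since the intron bases themselves were not in the transcript sequences used. They lie before the highest-scoring LPS-down peak (Clca1), before 2 of the 3 highest-scoring Mel+LPS-up peaks after an exon (Kdm2b and Fbn1), and before the Usp40 site, which was called in 2 tables. Each is printed 5′ to 3′ on the strand of the gene up to its last exon base, from GENCODE transcripts, with DRACH in capitals.
Clca1, chr3:145013848-145013997, minus strand: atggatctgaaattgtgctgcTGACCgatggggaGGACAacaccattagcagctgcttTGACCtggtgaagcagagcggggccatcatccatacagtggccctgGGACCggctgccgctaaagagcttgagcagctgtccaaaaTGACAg
Kdm2b, chr5:122883319-122883462, minus strand: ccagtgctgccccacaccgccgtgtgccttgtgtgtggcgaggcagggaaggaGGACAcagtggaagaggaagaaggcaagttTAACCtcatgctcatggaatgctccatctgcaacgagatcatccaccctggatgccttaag
Fbn1, chr2:125381985-125382107, minus strand: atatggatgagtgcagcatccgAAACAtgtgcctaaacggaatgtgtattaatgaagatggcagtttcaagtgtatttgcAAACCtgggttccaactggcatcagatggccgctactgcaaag
Usp40, chr1:87952340-87952458, minus strand: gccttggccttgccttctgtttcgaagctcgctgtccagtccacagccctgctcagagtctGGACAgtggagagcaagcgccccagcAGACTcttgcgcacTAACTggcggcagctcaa

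DRACH was no denser in these exon ends than in others. The last 100 bases of 1126 exons before a peak held 22.3 DRACH per 1000 bases, and those of 14011 other internal exons of the same transcripts 21.7, a ratio of 1.03 (95% counting interval 0.986 to 1.07). At least 1 DRACH was present in 90.6% and 90.1% of them. GGAC was present in 37.6% and 37.7%.

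A minority of members lay on exons of other annotated transcripts. Of 4337 members on assembled chromosomes, 545 (12.6%, 11.6 to 13.6) touched an exon of any GENCODE transcript, 284 of them an exon of a retained-intron transcript of the host. The share was 17.2% (15.1 to 19.5) in Mel+LPS-up and between 10.6% and 11.4% in the other tables. The peak sequence itself could be read for 400 peaks at 358 distinct sites that a GENCODE exon on the host strand covered whole. In 344 of them with a neighbouring stretch on the same exon, DRACH stood at 22.1 per 1000 bases against 19.98 beside them, a ratio of 1.10 (1.03 to 1.19). GGAC stood at 4.39 against 3.02 per 1000 bases, a ratio of 1.45 (1.216 to 1.74), and occurred in 41.6% of the peaks and 34.4% of 575 stretches of equal length beside them. DRACH on the opposite strand had a ratio of 1.01 (0.935 to 1.09). In the 47 sites with a score of at least 6 the DRACH ratio was 0.853 (0.690 to 1.05).

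The covered sequences of 3 named hosts, picked from several, are shown as examples. Col26a1 has the LPS-up peak with the highest score after an exon and holds no DRACH in 107 bases. Hnrnpul1 has the highest score among splicing factors and holds 1 in 105 bases. Traf5, a TNF receptor associated factor of NF-kB signalling, holds 7 in a longer peak of 200 bases. Capitals mark DRACH, and the strand is that of the host.
Col26a1, chr5:136757516-136757622, minus strand: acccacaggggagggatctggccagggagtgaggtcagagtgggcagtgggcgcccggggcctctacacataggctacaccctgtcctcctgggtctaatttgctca
Hnrnpul1, chr7:25740673-25740777, minus strand: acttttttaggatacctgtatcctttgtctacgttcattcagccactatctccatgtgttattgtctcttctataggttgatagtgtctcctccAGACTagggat
Traf5, chr1:192055465-192055664, minus strand: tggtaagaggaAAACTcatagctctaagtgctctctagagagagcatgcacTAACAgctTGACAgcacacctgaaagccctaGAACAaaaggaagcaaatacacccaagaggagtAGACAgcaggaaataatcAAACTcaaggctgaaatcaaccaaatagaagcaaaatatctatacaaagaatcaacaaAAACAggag

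Some covered peaks shared words of sequence with other genes. A word of 31 bases of the Traf5 peak occurred in transcripts of 9 other genes, and one of a deep LPS-down peak in Col25a1 in 172 other genes, whereas the Col26a1 and Hnrnpul1 peaks shared none. Among 93 deep covered sites, 33 (35.5%) shared a word with another gene and 18 (19.4%, 12.6 to 28.5) with 10 or more. Among 159 stretches beside them the shares were 27.0% and 12.6% (8.29 to 18.6). Among 193 covered sites after an exon they were 9.33% and 4.66%. Reads of copied sequence can be split between copies, and the part of this in the calls was not tested.

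The scores of later-intron peaks were bunched at a few exact values. In LPS-up 342 members (25.6%) carried the same score, 3.78, and the next most frequent were 6.19 (51 members) and 1.13 (22 members). In LPS-down 179 members (23.6%) carried 3.63, in Mel+LPS-down 342 (28.3%) carried 3.85, and in Mel+LPS-up 104 (8.93%) carried 5.42. Over all peaks of the tables the same scores made up 12.1%, 11.9%, 14.9% and 3.57%, and among internal-exon peaks 4.79%, 3.91%, 8.73% and 1.85%. The most common score was thus also the median of the members in 3 of the tables, and the median in Mel+LPS-up was 2.80.

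Bunching was mainly a property of deep peaks. The most common score of its table was carried by 660 of the 2125 deep peaks (31.1%) and by 210 of the 1917 peaks after an exon (11.0%). First introns, whose deep peaks numbered 896, were alike, with 32.9% of those at the common score. The reads behind a score were not among the values analysed here, and the part of read depth was not tested.

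**Figure D2:**
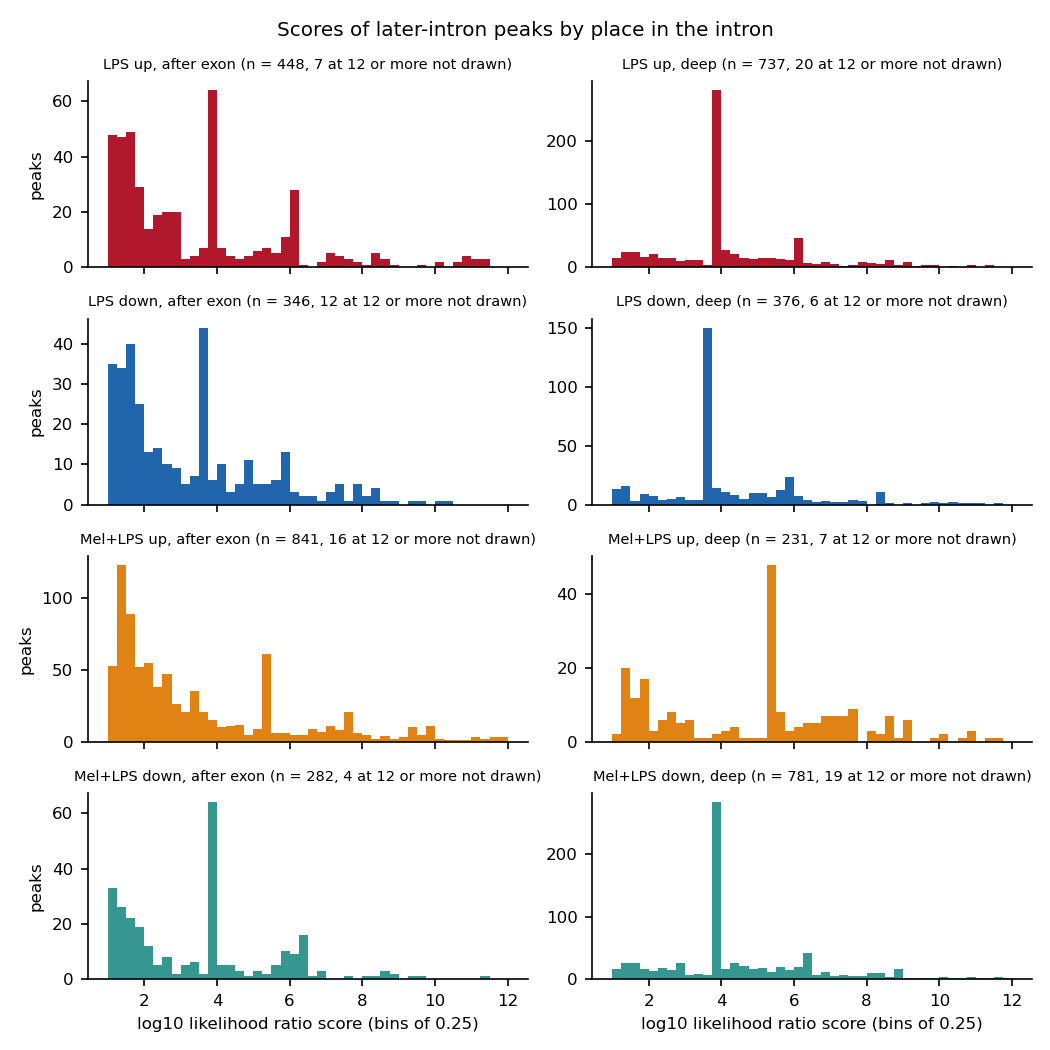
Histograms of the log10 likelihood ratio score (horizontal axis, bins of 0.25) of later-intron peaks in the 4 tables (rows), for peaks after an exon (left) and deep peaks (right), with the number of peaks on the vertical axis. A single tall bin near 3.6 to 3.9, or near 5.4 in Mel+LPS-up, stands out in the deep peaks, and holds a smaller share of the peaks after an exon.

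Taken as 1 group, later-intron peaks were nearly balanced in direction. In LPS vs Veh on chromosomes 1 to 9, 690 of 1427 were m6A-up (48.4%, 45.8 to 51.0) against 49.8% of all differential peaks there. In Mel+LPS vs LPS, 1165 of 2374 were m6A-up (49.1%, 47.1 to 51.1) against 59.3% of all differential peaks.

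Split by place, the 2 kinds went opposite ways in Mel+LPS vs LPS. Of 1123 peaks after an exon, 841 were m6A-up (74.9%, 72.3 to 77.3), and of 1012 deep peaks 231 (22.8%, 20.3 to 25.5). Internal-exon peaks were m6A-up in 80.7% and distal intergenic peaks in 27.4%. First introns held the same contrast, with 70 of 87 peaks after an exon (80.5%) and 86 of 403 deep peaks (21.3%) m6A-up. In LPS vs Veh the split was smaller, with 243 of 579 peaks after an exon (42.0%, 38.0 to 46.0) and 405 of 771 deep peaks (52.5%, 49.0 to 56.0) m6A-up. With the most common score left out, the shares in Mel+LPS vs LPS were 78.2% and 26.0%. Libraries enter both directions of a comparison together, and with no value per replicate the spread between mice behind these shares is unknown.

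**Figure D3:**
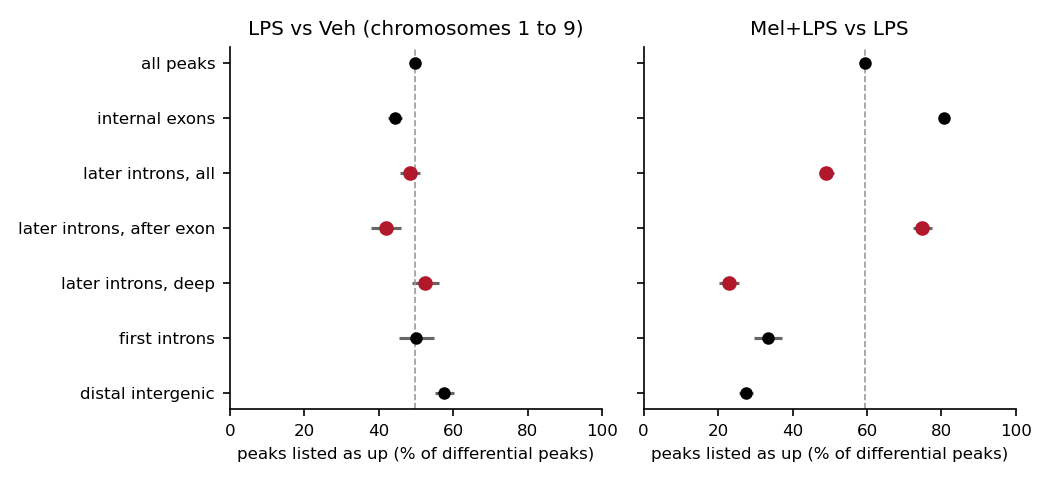
Share of differential peaks listed as m6A-up (horizontal axis, percent) by feature class, for LPS vs Veh on chromosomes 1 to 9 and for Mel+LPS vs LPS, with 95% Wilson intervals and a dashed line at the share over all peaks. Red points are the later-intron peaks. In Mel+LPS vs LPS the peaks after an exon stand at 74.9% and the deep ones at 22.8%.

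Among LPS-up peaks, the highest score was 29.1, in intron 3 of Hnmt, which encodes the histamine-degrading enzyme histamine N-methyltransferase (chr2:24036969-24037229, deep). The second was 20.9 in intron 3 of Col26a1, a collagen gene, 10 bases after an exon. Alg12, an enzyme of N-glycan assembly, followed with 17.1, Cep85, a centrosomal protein gene, with 17.0, and Marco, a macrophage scavenger receptor, with 16.5. The Marco peak lay 61 bases after an exon, in intron 15, and a further LPS-up peak stood at 11.0 in intron 6. Mel+LPS-up peaks lay over both sites, with 1.19 in intron 15, where that peak reached the exon before and was annotated to it, and 1.16 in intron 6, so that both sites were m6A-up in both comparisons. The Col26a1 site had 5.96 in Mel+LPS-down, and the Alg12 and Cep85 sites, both deep, had 2.85 and 2.84.

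Hnmt and the gene of histamine synthesis each carried deep peaks of both comparisons. In intron 3 of Hnmt, 3 sites were LPS-up with scores of 12.4, 29.1 and 6.19. At the same sites Mel+LPS-down peaks had 3.44, 2.87 and 6.29. The scores of 6.19 and 6.29 were bunched ones, carried by 51 LPS-up and 48 Mel+LPS-down members. A further LPS-up peak, in intron 2 at 90 bases after an exon, had the common score of 3.78 and no peak of Mel+LPS vs LPS over it. Hdc, histidine decarboxylase, was looked up after the Hnmt values were seen. Its intron 2 held LPS-up peaks of 4.67, 1.78 and 2.01 that overlapped Mel+LPS-down peaks of 1.35, 1.41 and 2.51, and a Mel+LPS-up peak of 1.61.

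Among LPS-down peaks, the highest score of all members was 98.6, in Clca1, a secreted protein of mucous epithelia. That peak (chr3:145013726-145013847) began at the first base after the exon shown above. A second Clca1 peak, 58 bases after another exon, had 25.7. Neither site had a peak in Mel+LPS vs LPS. Arg1, the arginase of alternatively activated macrophages and of the urea cycle, had 36.4 at 14 bases after an exon, on chromosome 10, where that table is incomplete. Tmem132d, a transmembrane protein gene, had 27.9 in a deep site of intron 4, Prap1, a proline-rich acidic protein of uterine and gut epithelium, 17.3 at 61 bases after an exon, and Snd1, which carries staphylococcal nuclease domains, 15.9 in a deep site.

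Among Mel+LPS-up peaks, Coro2b, a coronin that binds actin, had the highest score, 29.1, in a deep site of intron 3. The second, 23.8 in H2-T3-3, lay on a scaffold outside the assembled chromosomes. Cdkn3, a cell cycle phosphatase, had 23.4, but that peak lay on an exon of another coding transcript of the gene. Kdm2b, a histone demethylase, had 21.2 at 17 bases after an exon, and Mroh8 20.9 in a deep site.

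Among Mel+LPS-down peaks, Grik2, a kainate receptor subunit, had 22.6, Kat8, a histone acetyltransferase, 19.7, Myh11, the smooth muscle myosin heavy chain, 19.4, Atrn (attractin) 18.8 and Coro2b 16.8. The Coro2b, Kat8 and Grik2 sites were LPS-up as well, with 10.7, 2.90 and 2.74, and no LPS-up peak lay over the Myh11 and Atrn sites. A second deep site of Kat8 had 7.20 in LPS-up and 12.7 in Mel+LPS-down. The Atrn peak was among the few just before an exon, at 120 bases.

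Several introns held rows of peaks at the same positions in LPS-up and Mel+LPS-down. The count of later-intron peaks was highest in Chd9, a chromatin remodeler (13), followed by Coro2b (12) and by Pi15, a secreted peptidase inhibitor, Rad51b, of homologous recombination, and Sec24d, of the COPII coat (10 each). All 13 Chd9 peaks were deep in intron 2, 7 LPS-up and 6 Mel+LPS-down. Some of them touched an exon of a Chd9 transcript that was neither coding nor retained-intron. A word of 31 bases of the LPS-up peak at chr8:90891100-90891248 occurred in transcripts of 10 other genes. The LPS-up scores of Chd9 ranged from 1.90 to 8.56 and its Mel+LPS-down scores from 1.69 to 8.81. All 10 Pi15 peaks lay in intron 2 with scores of at most 2.72. Rad51b had 5 peaks of each of these tables in introns 7, 8 and 9, with at most 4.03 in LPS-up and 9.65 in Mel+LPS-down. Sec24d differed, with 6 LPS-down, 2 Mel+LPS-up and 2 Mel+LPS-down peaks.

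**Figure D4:**
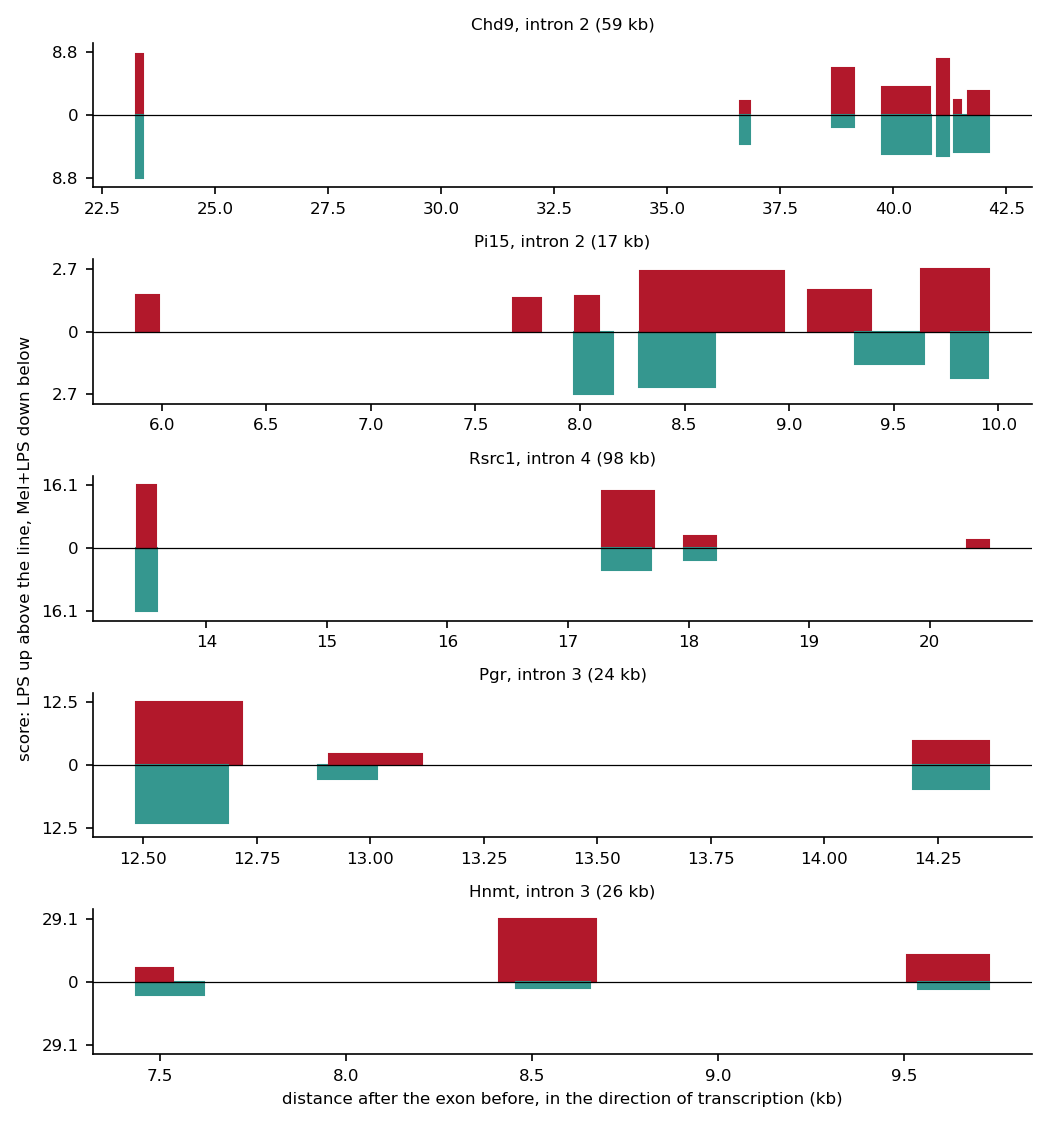
Later-intron peaks of 5 hosts by distance (kb) after the exon before, in the direction of transcription. Bar width is the width of the peak and bar height its score, with LPS-up above and Mel+LPS-down below the line. In each of the 5 introns the bars mostly face each other at the same positions. These pairs share the LPS libraries, and the Pgr scores at the strongest site are 12.5 and 11.6.

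The deep peaks of Pgr, the progesterone receptor that uterine receptivity depends on, lay in intron 3 at 3 places. Their LPS-up scores were 12.5, 2.16 and 4.74, and their Mel+LPS-down scores 11.6, 2.77 and 4.69. No LPS-down or Mel+LPS-up peak lay in a later intron of Pgr. Esr1, estrogen receptor alpha, was mixed, with a site at 6.80 in LPS-up and 9.04 in Mel+LPS-down, a separate Mel+LPS-up site at 6.80, and 2 LPS-down sites at the common score of 3.63, all on chromosome 10.

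The overlapping pairs with the highest lower score are given side by side. They share the LPS libraries and are no independent repeat of a change. For LPS-up with Mel+LPS-down these were Rsrc1, a splicing related gene (16.12 and 16.05), Slc24a3, a sodium, potassium and calcium exchanger (14.8 and 15.0), Fstl1, a secreted follistatin-like glycoprotein (14.8 and 14.6), Adam19, a metalloprotease (12.5 and 12.5), and Cenpp, of the kinetochore (12.1 and 13.2). For LPS-down with Mel+LPS-up they included Usp40, a deubiquitinase gene (13.5 and 18.6), Tmem132d (27.9 and 13.4), Fchsd2, of membrane and actin dynamics (8.32 and 9.23), and Prkag2, a regulatory subunit of AMPK (10.4 and 7.42). The Usp40 pair lay after an exon, at 44 and 10 bases, and the other pairs given here were deep. The hosts given here still had an overlapping pair when a larger overlap of both peaks was required.

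The gene groups below were counted against all 18503 coding genes with at least 2 introns. A host of at least 1 later-intron peak was 5.64% of these in LPS-up, 5.42% in Mel+LPS-up and 5.24% in Mel+LPS-down. On chromosomes 1 to 9 it was 6.14% of 10179 genes in LPS-down and 5.43% in LPS-up. Longer genes have more intron in which a peak can lie, and the median span is given with the counts only for the lists of longest genes. In the other lists it was 38.6 kb for autophagy, 33.8 kb for NF-kB and 29.97 kb for leukocyte genes. It was 28.5 kb for m6A genes, 26.2 kb for splicing factors and 23.5 kb for receptivity genes. Apoptosis genes were close to 22.0 kb, and interferon genes were below it. The part of length and of expression level was not tested. Since LPS-down is counted on chromosomes 1 to 9, LPS-up was also counted there for each list. That gave 3 of 15 steroid receptor and coregulator genes (20%), the same as in LPS-down, and 1 of 35 autophagy genes (2.86%). It also gave 3 of 34 receptivity genes (8.82%), 3 of 28 interferon genes (10.7%), 4 of 40 NF-kB genes (10%) and 3 of 29 apoptosis genes (10.3%). Chromatin modifiers numbered 5 of 44 (11.4%), splicing factors 5 of 49 (10.2%) and m6A genes 0 of 11. The LPS-up values below are over all chromosomes unless stated.

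Extracellular matrix and adhesion genes (94, median span 94.5 kb) were hosts mainly in LPS-down and Mel+LPS-up. They numbered 17 of 54 in LPS-down (31.5%) against 5 of 54 in LPS-up (9.26%) on chromosomes 1 to 9, and 22 of 94 in Mel+LPS-up (23.4%) against 6 of 94 in Mel+LPS-down (6.38%). Of the 22, 20 had a peak after an exon, as did 762 of all 1042 Mel+LPS-up hosts. The 22 included Col1a2, Col3a1, Col5a1, Col5a2 and Col6a3 of fibrillar and microfibrillar collagens, Fn1 (fibronectin) and Postn (periostin). Fbn1, fibrillin 1 of elastic microfibrils, had the highest score of the list, 17.1 in Mel+LPS-up in intron 15, at 51 bases after an exon. Its LPS-down peak of 6.94 was deep in intron 2, at another site. Col25a1 had 14.8 in LPS-down at the site with the run of A described above. Col12a1, a collagen associated with fibrils, held 7 peaks in 4 places. Its highest score was 10.3 in LPS-down, in intron 26 at 24 bases after an exon, and a Mel+LPS-up peak of 13.6, which reached the exon before and was annotated to it, lay over that site. In intron 59 a site after an exon had 1.62 in LPS-down and 2.43 in Mel+LPS-up. In intron 15 a site after an exon went the other way, with 6.06 in LPS-up and 6.15 in Mel+LPS-down, and a deep site of intron 25 had the common scores of 3.78 and 3.85.

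Smooth muscle genes (63, median span 88.2 kb) were hosts in every table, 14 in LPS-up (22.2%), 12 of 30 in LPS-down (40.0%), 13 in Mel+LPS-up (20.6%) and 12 in Mel+LPS-down (19.0%). On chromosomes 1 to 9 the LPS-up count was 7 of 30 (23.3%). Hosts with a peak after an exon and with a deep peak numbered 8 and 5 in Mel+LPS-up and 2 and 10 in Mel+LPS-down. The same turn was seen over all hosts, with 762 and 218 in Mel+LPS-up and 268 and 661 in Mel+LPS-down. Myh11 had 19.4 in Mel+LPS-down deep in intron 3 and 5.35 in Mel+LPS-up in intron 8, at 27 bases after an exon. Synpo2, a Z-disc protein, had 17.8 in Mel+LPS-up in a deep site, but its other 5 peaks lay on exons of another coding transcript. Ldb3, also of the Z-disc, had 9.71 in Mel+LPS-up at 63 bases after an exon.

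Steroid receptors and coregulators (35, median span 88.6 kb) numbered 4 in LPS-up (11.4%), 3 of 15 in LPS-down (20%), 8 in Mel+LPS-up (22.9%) and 4 in Mel+LPS-down (11.4%). Next to Pgr, the coactivator Ncoa3 had 10.8 in LPS-up, at 35 bases after an exon. Uterine receptivity and decidua genes (59) numbered 7, 3 of 34, 9 and 6 in the same order of tables (11.9%, 8.82%, 15.3% and 10.2%). Egfr, the epidermal growth factor receptor, had 7.92 in Mel+LPS-up at 27 bases after an exon. A deep Egfr site in the intron before had 6.19 in LPS-up and 6.29 in Mel+LPS-down. Those deep-site scores were bunched ones, carried by 51 and 48 members of their tables. Stat3, the signal transducer of LIF in implantation, had 7.01 in Mel+LPS-up at 24 bases after an exon, in its last intron.

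Leukocyte markers (54) numbered 8 in LPS-up (14.8%), 0 of 29 in LPS-down, 3 in Mel+LPS-up (5.56%) and 6 in Mel+LPS-down (11.1%). On chromosomes 1 to 9 the LPS-up count was 3 of 29 (10.3%). Lcp1, the leukocyte plastin, had the highest score, 10.9 in LPS-up at 35 bases after an exon, and a separate Mel+LPS-up peak of 3.31. Inpp5d, the phosphatase SHIP1, had 6.15 in LPS-up and 6.25 in Mel+LPS-down at one deep site, and Runx1 5.60 in LPS-up. The leukocyte hosts in LPS-up also included Ptprc (CD45), Adgre1 (F4/80) and Itgal. The highest-scoring Itgal peak, 1.46 in LPS-up, lay on an exon of another coding transcript of the gene. A change in the number of leukocytes and in their methylation cannot be told apart here.

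Interferon response genes (58) were hosts in 5 (8.62%), 0 of 28, 4 (6.90%) and 4 (6.90%) cases. Parp9 had 8.98 in Mel+LPS-down and 3.38 in LPS-up at one deep site. The receptor subunit Ifnar2 had 8.75 in LPS-up, a bunched score carried by 11 members, and Ifi44 the common score of 5.42 in Mel+LPS-up. TLR and NF-kB signalling genes (68) were hosts in 5 (7.35%), 2 of 40 (5.00%), 3 (4.41%) and 2 (2.94%) cases. Ikbke, a kinase upstream of interferon regulatory factors, had 7.21 in LPS-up, Traf5 5.94 in LPS-up and 5.75 in Mel+LPS-down at the site shown, and Chuk, the kinase IKK alpha, the common 5.42 in Mel+LPS-up. Rela, the p65 subunit of NF-kB, had 1.46 in LPS-up at 13 bases after an exon.

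Chromatin modifiers (91, median span 76.1 kb) numbered 13 in LPS-up (14.3%), 5 of 44 in LPS-down (11.4%), 14 in Mel+LPS-up (15.4%) and 17 in Mel+LPS-down (18.7%). Kdm2b and Kat8 led, followed by Tet3, an enzyme of DNA demethylation, with 13.1 in Mel+LPS-down. Splicing factors (97) numbered 10 (10.3%), 4 of 49 (8.16%), 9 (9.28%) and 5 (5.15%). Hnrnpul1 had 8.89 in Mel+LPS-up, Taf15 8.30 in LPS-up with 6.90 in Mel+LPS-down at one deep site, and Elavl1, the RNA-stabilizing protein HuR, 8.13 in Mel+LPS-up and 7.10 in LPS-down at one site after an exon.

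Autophagy and mTOR genes (66) numbered 6 (9.09%), 4 of 35 (11.4%), 4 (6.06%) and 7 (10.6%). The kinase gene Ulk2 had 10.6 in Mel+LPS-down, Prkaa1, the catalytic subunit of AMPK, 8.12 in LPS-up at 21 bases after an exon, and Tsc1, an inhibitor of mTORC1, 7.65 in Mel+LPS-up. Atg5 had 2.33 in LPS-up at 53 bases after an exon and Atg7 2.59 in LPS-down at 37 bases after an exon, each in its last intron and with no peak of Mel+LPS vs LPS over it. Apoptosis genes (48) numbered 6 (12.5%), 2 of 29 (6.90%), 0 and 5 (10.4%). Casp8, the initiator caspase of death receptors, had 11.3 in LPS-up, and Mdm4, an inhibitor of p53, 8.42 in LPS-down. The Mdm4 score was a bunched one, carried by 6 LPS-down members.

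Few genes of the m6A machinery could be counted. Of 26, 0 were hosts in LPS-up, 1 of 11 in LPS-down (9.09%), 2 in Mel+LPS-up (7.69%) and 2 in Mel+LPS-down (7.69%), counts too small to set apart from the shares over all genes. The demethylase Fto had an LPS-down peak of 3.63, the common score, deep in its last intron. Mettl4 had 2.60 in Mel+LPS-down and the reader Hnrnpc 1.56 in Mel+LPS-up. Among 16 genes picked from those with uterine mRNA or protein assays, 5 were hosts in any table (Atg5, Atg7, Fto, Rela and Stat3), each with a single peak, against 2575 of all 18503 coding genes.

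**Figure D5:**
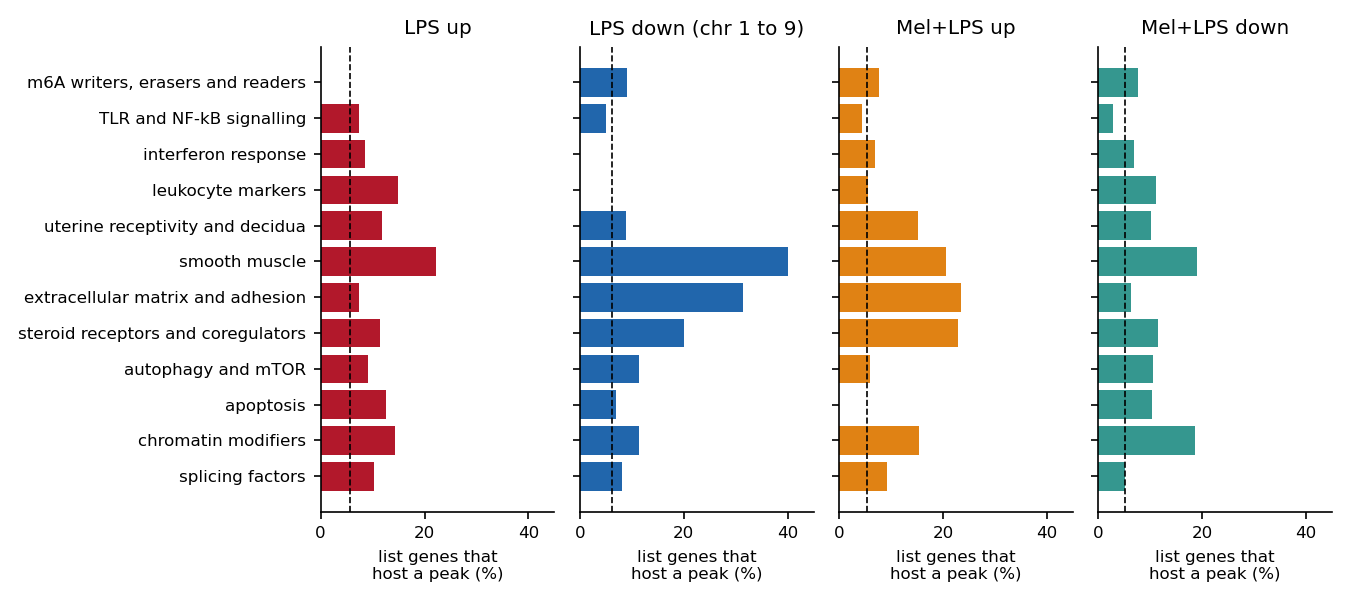
Share of the genes of each of 12 lists (percent, horizontal axis) that host at least 1 later-intron peak in each table, with a dashed line at the share over all coding genes with at least 2 introns. LPS-down counts genes of chromosomes 1 to 9 only. Smooth muscle, extracellular matrix, steroid receptor, chromatin modifier, receptivity and autophagy genes stand above the line in all 4 tables. Extracellular matrix genes stand far above it in LPS-down (31.5%) and Mel+LPS-up (23.4%). Gene length was not taken into account.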

How the data were processed

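m6A-seq of mouse uterus was analysed from 4 deposited tables of differential peaks. In short, the authors fragmented mRNA, precipitated it with an m6A antibody and sequenced it, and, per the labels and the methods, aligned reads with STAR 2.5.2a to mm10, detected peaks by exomePeak2 and differences between treatments by MACS2 3.4, and assigned each peak to a feature by ChIPseeker 1.22.1. The read extension, the shift and the strand setting are not given in the sources used here. The deposited score of each peak is the authors' MACS2 log10 likelihood ratio. Every deposited member has a score above 1, and no depth per library was computed, so that the precision of single values is unknown. One cut-off line that ends the LPS-down table was skipped.

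From the tables, coding introns after the first were taken, and members were placed on the exons of coding GENCODE M21 transcripts of the host (GRCm38, release 21) with pandas 2.3.3 in Python 3.11.15. Placing was tested on 561 made peaks and recovered all 561. No test was run, since each peak has 1 value per comparison and peaks are not replicates. Shares carry 95% Wilson intervals. Hdc was named after its values were seen. Other hosts were named by rule: in each table the 5 with the highest score, the 5 with most peaks, the 5 pairs per direction with the highest lower score, up to 3 per gene list and hosts among a chosen set of genes that the study measured. Some hosts that the rule names are not reported here. The members, the 12 lists and the rules were chosen with earlier results of these data known. Alternatives were score limits of 3 and 6, 1 peak per host or gene, NM_ transcripts only, omission of peaks on exons, other overlap rules, motifs and control stretches.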

Additional observations from a re-analysis of the deposited data

How the results depend on the processing

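Of 91 alternative values, 43 moved by less than their spread or interval, 46 moved and 2 turned around; the cause was not tested. Each list below is in the order LPS-up, LPS-down, Mel+LPS-up, Mel+LPS-down. The share of peaks in later introns was 15.4%, 17.0%, 12.7% and 19.0% at a score of at least 3, 15.1%, 13.6%, 15.3% and 19.7% at a score of at least 6, 6.38%, 6.47%, 5.42% and 7.49% with NM_ transcripts only, and 9.39%, 10.2%, 8.19% and 11.1% with the most common score left out. With 1 peak per assigned gene it was 12.04% in LPS-up, 9.40% in Mel+LPS-up and 13.9% in Mel+LPS-down. Without the most common score the median scores were 3.82, 3.65, 2.53 and 4.28. The share within 200 bases of an exon was then 46.2% in LPS-up, 57.6% in LPS-down and 33.3% in Mel+LPS-down. By peak centre, with every score kept, that share was 27.9% in Mel+LPS-down. Counting exons on the host strand only, the share touching an exon was 15.0% in Mel+LPS-up and 8.92% in Mel+LPS-down.

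The m6A-up share in Mel+LPS vs LPS was 38.6% for all later-intron peaks, 69.8% after an exon and 20.1% for deep peaks at a score of at least 3, 55.0%, 78.2% and 26.0% without the most common score, 30.3% for deep peaks at a score of at least 6, and 51.3% for all and 19.9% for deep peaks with NM_ transcripts only. In LPS vs Veh at a score of at least 6 it was 54.8% for all, 50% after an exon and 59.7% for deep peaks. With every chromosome, and so with the incomplete table, it was 63.8%, 56.4% (turned around) and 66.2%. The DRACH ratio was 0.853 (turned around) at a score of at least 6 and 1.19 with stretches 500 bases away; the ratio was 1.45 for GGAC and 1.01 for DRACH on the opposite strand.

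No paired analysis was possible because the tables hold no value per replicate, and leaving out a replicate was not possible for the same reason. Leaving out soft-masked repeats was not run, since no genome was used here, and the DRACH ratio without peaks on exons has no value, since every peak with sequence lies on one. Leaving out the most common score, every alternative for peaks after an exon and deep peaks, the moved centres and the search for copies were chosen after seeing the data.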
